A study of Homo sapiens with 6 samples.

Results

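The 10 genes described here encode Polo and Aurora A kinases, their activators, the centrosome kinase NEK2 and proteins that build a new centriole. The genes are PLK1, PLK4, AURKA, NEK2, TPX2, BORA, STIL, SASS6, CEP152 and CEP192. They were chosen by symbol, and the entries of the table whose Ensembl identifier maps to these symbols were read. Each symbol mapped to 1 of 58825 identifiers, and all 10 were among the 16208 genes that passed the filter on low counts. The measurements are RNA-seq counts from SKOV3, an established human ovarian cancer cell line. In 3 libraries (NC) the cells had received a negative control siRNA, and in 3 libraries (si-EIF5A2) they had received an siRNA against EIF5A2, a translation factor. RNA was isolated 48 h after transfection in both groups. The knockdown was transient, rests on 1 siRNA duplex in 1 cell line, and had no further treatment or allele. The labels do not say that replicates came from separate cultures, so the p-values measure the spread between these libraries, which may be technical.

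Polo and Aurora kinases drive the G2 and M phases of the cell cycle. BORA lets Aurora A switch on PLK1 before mitosis, TPX2 binds and activates Aurora A on the spindle, and NEK2 dissolves the link between the centrosomes. PLK4 starts centriole duplication: CEP152 and CEP192 hold it at the parent centriole, it phosphorylates STIL, and STIL recruits SASS6, whose oligomers form the cartwheel of the new centriole. Transcription of many such genes peaks late in the cycle, so their RNA level follows the share of dividing cells. In bulk RNA, fewer cells in a cycle phase and less RNA per cell cannot be told apart.

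All 10 genes were lower in si-EIF5A2 than in NC, and in each of them the highest si-EIF5A2 library lay below the lowest NC library. All 10 were called lower by edgeR's quasi-likelihood test (adjusted p under 0.05, fold change past 1.5), against 13.6% of all genes tested, and 0 were called higher, against 11.1%. Ranges that did not overlap, with si-EIF5A2 lower, were seen in 26.5% of all genes. The falls ran from 8.59-fold for PLK1 to 1.51-fold for CEP192. The median log2 fold change of the 10 genes was -1.94, against -0.01 for all genes. The summed level of the 10 genes was between 665 and 736 CPM (counts scaled to library size) in the NC libraries and between 110 and 122 CPM in the si-EIF5A2 libraries.

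The libraries held 46900204 to 74142267 counts, and low values came in steps of 3.74 to 3.78 counts, so that 1 sequenced fragment was worth several counts and the depth was 12540161 to 19718688 fragments. Pearson's r of log2 CPM across genes was 0.964 to 0.974 within a group and 0.929 to 0.938 between groups. EIF5A2 itself had 27.8, 29.8 and 29.9 CPM in the NC libraries and 2.76, 4.04 and 4.27 CPM in si-EIF5A2, so 12.7% of its level remained (log2 fold change -2.98, SE 0.18, adjusted p = 1.6e-05, edgeR's quasi-likelihood test). Of 10 markers of an ovarian epithelial line, KRT7, KRT8, KRT18, ERBB2 and PAX8 were expressed (NC means from 45.9 CPM for ERBB2 to 608 CPM for KRT8), whereas KRT19, WT1, EPCAM and CDH1 had NC means of 0.663 to 3.22 CPM and MUC16 had 0 counts in every library. Of the 9 tested, KRT7 (log2 fold change -0.87), KRT8 (-0.69) and PAX8 (-0.80) were called lower and 0 higher. The share called lower was 33.3%, against 13.6% of all genes, and 11.1% of all genes were called higher. Of 8 markers of other cells, PTPRC and CD3E had 0 counts in every library, DCN and LUM had NC means of 0, and PDGFRB, VWF and PECAM1 had NC means of 0.235 to 1.87 CPM. CD68 had 46.3 CPM in the NC libraries and 39.1 CPM in si-EIF5A2. Of the 4 tested, PDGFRB (25%) was called lower (-4.37), against 13.6% of all genes, and 0 were called higher, against 11.1%. The PDGFRB means were 0.601 CPM in the NC libraries and 0.0278 CPM in si-EIF5A2, the latter under the level of 3 fragments. The part of these marker changes in the results was not tested.

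The promoters of 8 of the 10 genes were in the RefSeq table (GRCh38.p14), each as 250 bases before and 50 bases after the transcription start, with 3 starts for PLK4. They are shown because the members fell together and because genes of the late cell cycle often carry a CHR element or CCAAT boxes. The 3 largest falls with a promoter in the table (PLK1, NEK2 and the first start of PLK4), a BORA promoter with both elements, and the smallest fall (CEP192) are printed 5′ to 3′ on the gene's strand, with matches to TTTGAA (the CHR core), CCAAT and TTTNNCGC (an E2F site) on either strand in capitals. PLK1 is at chr16:23678639-23678938 on the plus strand, NEK2 at chr1:211675572-211675871 on the minus strand, PLK4 at chr4:127880643-127880942 on the plus strand, BORA at chr13:72727673-72727972 on the plus strand and CEP192 at chr18:12991112-12991411 on the plus strand.
PLK1: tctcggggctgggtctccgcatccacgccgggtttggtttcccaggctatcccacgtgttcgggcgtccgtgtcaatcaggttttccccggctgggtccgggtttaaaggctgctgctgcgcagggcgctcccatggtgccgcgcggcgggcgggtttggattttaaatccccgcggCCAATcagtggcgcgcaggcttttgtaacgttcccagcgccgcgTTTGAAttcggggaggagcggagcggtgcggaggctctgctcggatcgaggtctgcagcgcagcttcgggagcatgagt
NEK2: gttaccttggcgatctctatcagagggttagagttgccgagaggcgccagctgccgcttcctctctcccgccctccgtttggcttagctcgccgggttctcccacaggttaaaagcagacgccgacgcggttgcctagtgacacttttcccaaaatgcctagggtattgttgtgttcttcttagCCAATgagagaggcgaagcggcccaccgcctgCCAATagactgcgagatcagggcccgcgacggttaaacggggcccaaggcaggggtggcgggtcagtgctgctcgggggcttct
PLK4: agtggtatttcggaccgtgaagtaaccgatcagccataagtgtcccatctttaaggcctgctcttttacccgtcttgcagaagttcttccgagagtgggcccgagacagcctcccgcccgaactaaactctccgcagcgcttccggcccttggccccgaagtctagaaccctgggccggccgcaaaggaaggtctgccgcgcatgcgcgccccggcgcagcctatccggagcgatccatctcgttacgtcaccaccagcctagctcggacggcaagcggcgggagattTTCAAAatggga
BORA: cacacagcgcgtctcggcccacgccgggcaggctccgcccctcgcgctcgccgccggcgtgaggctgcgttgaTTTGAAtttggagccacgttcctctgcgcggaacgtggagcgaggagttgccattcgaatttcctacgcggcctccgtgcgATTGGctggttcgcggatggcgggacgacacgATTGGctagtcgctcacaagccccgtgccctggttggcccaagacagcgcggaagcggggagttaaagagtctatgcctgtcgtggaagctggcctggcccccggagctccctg
CEP192: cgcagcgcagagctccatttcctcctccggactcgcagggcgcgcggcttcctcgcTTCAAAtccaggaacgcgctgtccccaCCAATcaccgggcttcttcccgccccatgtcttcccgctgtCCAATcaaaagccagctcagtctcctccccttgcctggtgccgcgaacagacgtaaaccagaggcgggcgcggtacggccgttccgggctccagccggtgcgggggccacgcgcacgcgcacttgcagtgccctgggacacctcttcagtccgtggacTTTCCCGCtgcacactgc

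In the PLK1 promoter a CCAAT match lay 73 bases before the start and a TTTGAA match 29 bases before it. The NEK2 promoter had CCAAT matches 66 and 34 bases before the start and no TTTGAA match. At the first start of PLK4 the reverse complement of TTTGAA lay at positions 39 to 44, the second start had 0 matches to the 3 motifs, and the third start had 1 CCAAT match. BORA had TTTGAA 177 bases before the start and CCAAT matches at 96 and 64 bases. CEP192 had matches to all 3 motifs, with the E2F match at positions 33 to 40 after the start. Of the 10 windows of the 8 genes, 5 had a TTTGAA match, 7 had a CCAAT match and 3 had a TTTNNCGC match. Of 35116 promoters of this length, 15.2% held TTTGAA, 34.6% held CCAAT and 6.89% held TTTNNCGC, counted on both strands. CEP152 and CEP192, the smallest falls, both had a TTTGAA match. SASS6 had a TTTNNCGC match but no TTTGAA or CCAAT match, and STIL had CCAAT matches and a TTTNNCGC match but no TTTGAA match. AURKA and TPX2 had no promoter to read, and whether matches go with the size of the fall was not tested. A match describes letters in the window and not a bound site.

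PLK1, the kinase that drives mitotic entry and spindle assembly, showed the largest fall of the 10. It had 180.5, 174.9 and 147.1 CPM in the NC libraries and 17.6, 23.7 and 17.2 CPM in the si-EIF5A2 libraries. Every si-EIF5A2 library was therefore far below the lowest NC library. The means were 167 ± 17.9 (SD, n = 3) and 19.5 ± 3.69 CPM (SD, n = 3), a log2 fold change of -3.10 (SE 0.15, 95% confidence interval -3.46 to -2.74, adjusted p = 9.2e-06, edgeR's quasi-likelihood test). Ranked by log2 fold change over all 16208 genes, PLK1 was number 156 from the most negative. In GENCODE release 29 (GRCh38) PLK1 (ENSG00000166851) maps to chromosome 16 (23677656 to 23690367, plus strand). Its exons share bases with an antisense gene that had 0 counts and with ERN2, which had 2 counts in all.

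AURKA encodes Aurora A, the centrosome kinase that activates PLK1. Its level was 116, 139 and 82.0 CPM in the NC libraries and 30.1, 26.2 and 25.7 CPM in si-EIF5A2. The NC libraries were the more spread, with replicate 3 lowest, and the groups did not overlap. The means of 112 ± 28.7 and 27.3 ± 2.42 CPM (SD, n = 3) gave a log2 fold change of -2.04 (SE 0.19, 95% confidence interval -2.50 to -1.58, adjusted p = 2.3e-04, edgeR's quasi-likelihood test). The gene (ENSG00000087586) maps to chromosome 20 (56369389 to 56392337, minus strand). Its transcribed pseudogene AURKAP1 had 18 to 35 counts per library, against 1234 to 9842 for AURKA.

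NEK2, a kinase that separates the centrosomes at the onset of mitosis, had 18.1, 22.4 and 24.6 CPM in the NC libraries and 3.58, 4.44 and 4.52 CPM in si-EIF5A2. All si-EIF5A2 libraries were at most 4.52 CPM, and 19.3% of the NC mean remained. The means were 21.7 ± 3.30 and 4.18 ± 0.524 CPM (SD, n = 3), and the log2 fold change was -2.38 (SE 0.17, 95% confidence interval -2.76 to -1.99, adjusted p = 3.1e-05, edgeR's quasi-likelihood test). NEK2 (ENSG00000117650) maps to chromosome 1 (211658657 to 211675630, minus strand).

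PLK4, the kinase whose level limits centriole number, was the least abundant of the 4 kinases per length of transcript. It had 9.50, 9.40 and 11.4 CPM in the NC libraries and 1.94, 2.05 and 2.08 CPM in si-EIF5A2. The si-EIF5A2 libraries lay close together, at 20.0% of the NC mean. The means were 10.1 ± 1.14 and 2.02 ± 0.0776 CPM (SD, n = 3), and the log2 fold change was -2.32 (SE 0.16, 95% confidence interval -2.68 to -1.95, adjusted p = 2.7e-05, edgeR's quasi-likelihood test). These levels rested on 144 to 184 fragments per NC library and 26 to 29 per si-EIF5A2 library. PLK4 (ENSG00000142731) maps to chromosome 4 (127880861 to 127899195, plus strand).

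**Figure D1:**
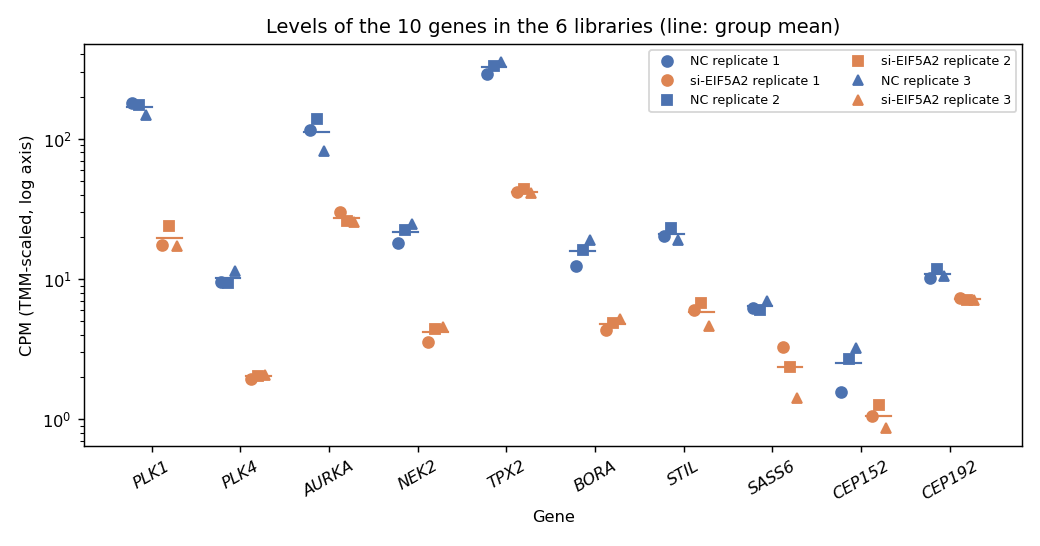
CPM of each of the 10 genes in the 6 libraries on a log axis, with blue for NC, orange for si-EIF5A2, a marker shape for each replicate number and lines at the group means. In every gene the 3 orange points lie below the 3 blue points, with the widest gap between the groups for TPX2 and PLK1 and the narrowest for CEP152.

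TPX2, the spindle assembly factor that activates Aurora A, was the most abundant of the 10 genes in NC. It had 290, 330 and 352 CPM in the NC libraries and 41.5, 43.7 and 41.2 CPM in si-EIF5A2. The si-EIF5A2 libraries differed by less than 3 CPM, and 13.0% of the NC mean remained. The means were 324 ± 31.5 and 42.1 ± 1.33 CPM (SD, n = 3), a log2 fold change of -2.94 (SE 0.093, 95% confidence interval -3.16 to -2.73, adjusted p = 4.4e-06, edgeR's quasi-likelihood test). This was the smallest standard error among the 10 genes, and 524 to 6222 fragments per library stood behind the TPX2 values. TPX2 (ENSG00000088325) maps to chromosome 20 (31739271 to 31801805, plus strand).

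BORA, the cofactor with which Aurora A activates PLK1, had 12.4, 16.1 and 18.97 CPM in the NC libraries and 4.36, 4.90 and 5.21 CPM in si-EIF5A2. The lowest NC library still had more than the highest si-EIF5A2 library, and 30.5% of the NC mean remained. The means were 15.8 ± 3.29 and 4.83 ± 0.431 CPM (SD, n = 3), and the log2 fold change was -1.71 (SE 0.18, 95% confidence interval -2.14 to -1.29, adjusted p = 2.4e-04, edgeR's quasi-likelihood test). BORA (ENSG00000136122) maps to chromosome 13 (72727749 to 72756198, plus strand). It shares 1180 exon bases, 37.0% of its exons, with DIS3 on the opposite strand. Whether the counting used strand is not stated, so reads in these bases cannot be assigned with certainty. DIS3, a ribonuclease gene, had 21306 counts over all libraries, against 3669 for BORA. It changed by 0.48 on the log2 scale (adjusted p = 0.0224, edgeR's quasi-likelihood test), the opposite direction to BORA. The part of the BORA values that comes from DIS3 reads was not tested.

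STIL, the scaffold that PLK4 phosphorylates, had 20.3, 23.2 and 18.9 CPM in the NC libraries and 6.06, 6.74 and 4.61 CPM in si-EIF5A2. The groups were far apart, with 27.9% of the NC mean remaining. The means were 20.8 ± 2.21 and 5.80 ± 1.09 CPM (SD, n = 3), and the log2 fold change was -1.84 (SE 0.17, 95% confidence interval -2.24 to -1.45, adjusted p = 1.2e-04, edgeR's quasi-likelihood test). STIL (ENSG00000123473) maps to chromosome 1 (47250139 to 47314147, minus strand).

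SASS6, the structural unit of the cartwheel, had 6.26, 6.03 and 6.998 CPM in the NC libraries and 3.31, 2.38 and 1.42 CPM in si-EIF5A2. The NC libraries were alike, whereas the si-EIF5A2 libraries were more spread, with replicate 3 lowest. The means were 6.43 ± 0.506 and 2.37 ± 0.944 CPM (SD, n = 3), and the log2 fold change was -1.44 (SE 0.29, 95% confidence interval -2.12 to -0.76, adjusted p = 0.00621, edgeR's quasi-likelihood test). The lowest si-EIF5A2 library rested on 18 fragments (exact Poisson 95% interval 10.7 to 28.4, counting error only). SASS6 (ENSG00000156876) maps to chromosome 1 (100083563 to 100132955, minus strand).

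CEP152 and CEP192, which anchor PLK4 at the parent centriole, had the smallest falls. CEP152 had 1.58, 2.71 and 3.25 CPM in the NC libraries and 1.06, 1.26 and 0.876 CPM in si-EIF5A2. NC replicate 1 was close to the si-EIF5A2 libraries without overlapping them. The means were 2.51 ± 0.856 and 1.07 ± 0.195 CPM (SD, n = 3), a log2 fold change of -1.23 (SE 0.34, 95% confidence interval -2.01 to -0.45, adjusted p = 0.0222, edgeR's quasi-likelihood test). Only 11 to 51 fragments stood behind each library, and leaving out NC replicate 2, NC replicate 3, si-EIF5A2 replicate 1 or si-EIF5A2 replicate 3 ended the call (log2 fold changes -1.17, -1.01, -1.23 and -1.12, adjusted p = 0.0692, 0.0780, 0.0604 and 0.0669). CEP152 (ENSG00000103995) maps to chromosome 15 (48712928 to 48811146, minus strand).

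CEP192, which also brings Aurora A to the centrosome, had 10.2, 11.8 and 10.5 CPM in the NC libraries and 7.37, 7.11 and 7.15 CPM in si-EIF5A2. Both groups were tight and did not overlap, but 66.4% of the NC mean remained. The means were 10.9 ± 0.871 and 7.21 ± 0.143 CPM (SD, n = 3), and the log2 fold change was -0.59 (SE 0.13, 95% confidence interval -0.88 to -0.30, adjusted p = 0.00776, edgeR's quasi-likelihood test). Its fold change of 1.51 was just over the limit of 1.5, and several other settings put it just under, among them leaving out NC replicate 2 (-0.52) or si-EIF5A2 replicate 2 (-0.58). CEP192 (ENSG00000101639) maps to chromosome 18 (12991362 to 13125052, plus strand).

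By role, the 4 kinases had a median log2 fold change of -2.35, the activators TPX2 and BORA -2.33, the cartwheel proteins STIL and SASS6 -1.64, and the anchors CEP152 and CEP192 -0.91. In order of fall the genes were PLK1, TPX2, NEK2, PLK4, AURKA, STIL, BORA, SASS6, CEP152 and CEP192. The 95% confidence intervals of every 2 neighbours in this order overlapped. Overlap of 2 intervals does not decide whether the genes differ, and a difference between neighbours was not tested here. The interval of PLK1 (-3.46 to -2.74) did not overlap that of AURKA (-2.50 to -1.58), nor did that of PLK4 (-2.68 to -1.95) overlap that of CEP192 (-0.88 to -0.30). By fitted fold change, 9 of the 10 genes fell by more than 2-fold and 5 by more than 4-fold. The 95% confidence intervals of NEK2, PLK4 and AURKA included a 4-fold fall, and those of SASS6 and CEP152 a 2-fold fall.

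**Figure D2:**
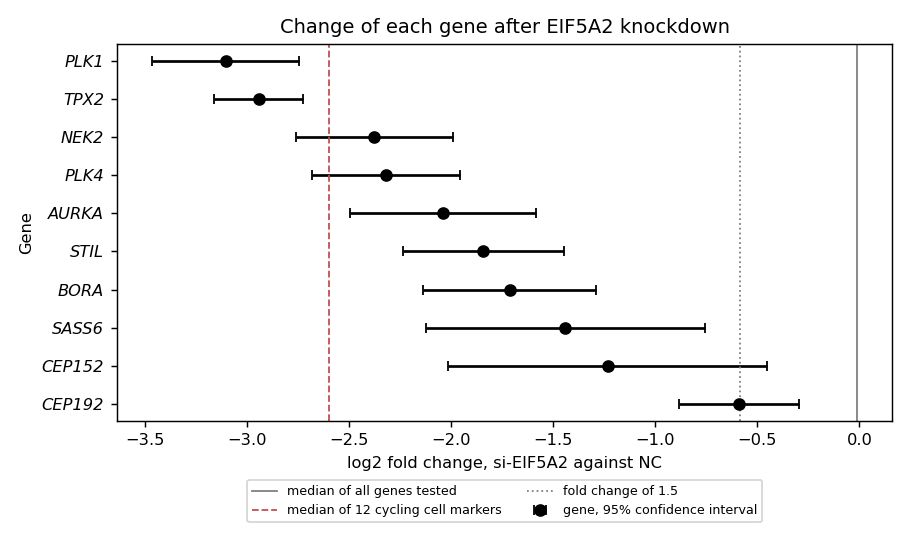
Log2 fold change (si-EIF5A2 against NC) of the 10 genes with 95% confidence intervals, ordered by size, with lines at the median of all genes (-0.01), the median of 12 cycling cell markers (-2.60) and the fold limit of 1.5. The points run from -3.10 for PLK1 to -0.59 for CEP192, and each interval overlaps that of the next gene.

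Levels were compared between genes as CPM per kilobase of the longest coding transcript. In NC the order was TPX2 (89.8 ± 8.74), PLK1 (75.2 ± 8.02), AURKA (49.95 ± 12.7), NEK2 (10.2 ± 1.55), BORA (5.22 ± 1.08), STIL (3.98 ± 0.423), PLK4 (2.63 ± 0.297), SASS6 (1.66 ± 0.130), CEP192 (1.36 ± 0.109) and CEP152 (0.446 ± 0.152 CPM per kilobase, SD, n = 3). The ranges of TPX2 and PLK1 overlapped, as did those of BORA and STIL. The mitotic genes thus formed the top of the order and the centriole genes the bottom. In si-EIF5A2 AURKA came first (12.2 CPM per kilobase), with a range that overlapped that of TPX2 (11.7), followed by PLK1 (8.75). PLK4 moved from above SASS6 and CEP192 in NC to below both in si-EIF5A2, at 0.527 CPM per kilobase against 0.610 for SASS6, whose range it overlapped, and 0.906 for CEP192, whose range it did not. When the summed length of all annotated exons was used instead, AURKA stood above PLK1 in NC, with overlapping ranges, and TPX2 above AURKA in si-EIF5A2.

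The ratio of partner genes within a library was compared for 8 pairs by a 2-sided exact permutation test whose smallest possible p with 3 against 3 libraries is 0.10. The log2 ratio of AURKA to TPX2 was -1.32, -1.25 and -2.10 in NC and -0.46, -0.74 and -0.68 in si-EIF5A2. It was higher in every si-EIF5A2 library (difference 0.93, exact permutation p = 0.10, adjusted over the 8 pairs p = 0.16). TPX2 had the larger fitted fall of the pair, but the test cannot pass 0.05 in this design. The log2 ratio of PLK4 to CEP192 was -0.10, -0.33 and 0.12 in NC and -1.91, -1.78 and -1.76 in si-EIF5A2, the largest shift of the 8 (difference -1.71, exact permutation p = 0.10, adjusted p = 0.16). CPM is not corrected for transcript length, so the ratio compares libraries and not the levels of the partners. Per kilobase of the longest coding transcript, PLK4 was above CEP192 in NC (2.63 against 1.36) and below it in si-EIF5A2 (0.527 against 0.906). PLK4 to CEP152 (difference -1.13), PLK1 to BORA (-1.42) and AURKA to CEP192 (-1.42) were also lower in every si-EIF5A2 library (exact permutation p = 0.10 for each, adjusted p = 0.16).

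The log2 ratio of PLK4 to STIL was -1.04 ± 0.29 in NC and -1.49 ± 0.31 in si-EIF5A2 (SD, n = 3), with ranges that overlapped (difference -0.45, exact permutation p = 0.20, adjusted p = 0.267). For AURKA to BORA (difference -0.32) and STIL to SASS6 (-0.34) the ranges also overlapped (exact permutation p = 0.40 for each). These 3 pairs were not separated beyond the spread between libraries, which does not show that their members moved alike.

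**Figure D3:**
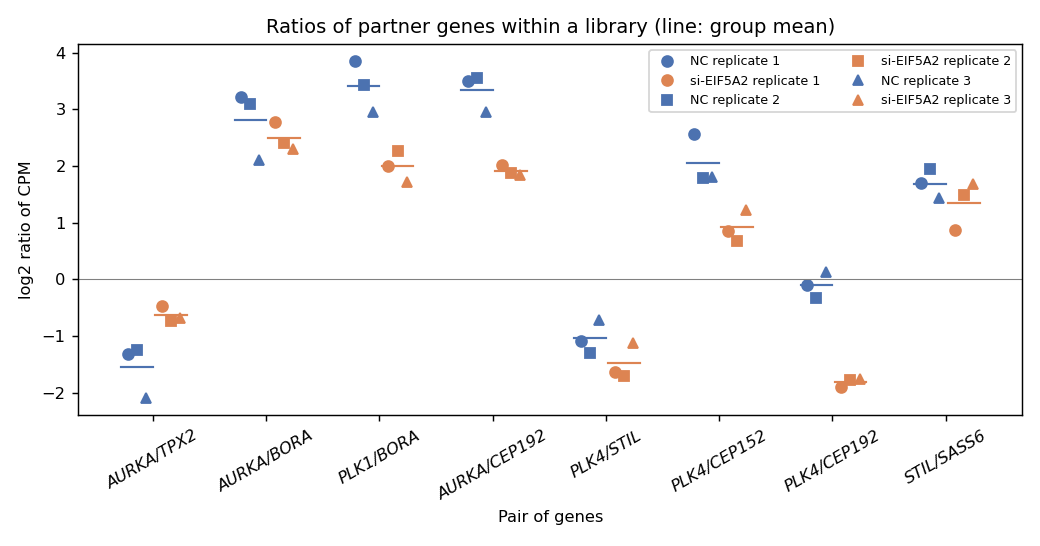
Log2 ratio of CPM of 8 pairs of partner genes within each of the 6 libraries, with blue for NC, orange for si-EIF5A2 and lines at the group means. The groups are apart for 5 pairs, with AURKA/TPX2 shifted up by 0.93 and PLK4/CEP192 shifted down by 1.71, and they overlap for AURKA/BORA, PLK4/STIL and STIL/SASS6.

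Genes that mark dividing cells moved with the 10 genes. Of 12 cycling cell markers, 11 (91.7%) were called lower, against 13.6% of all genes, and 0 higher, against 11.1%. Their median log2 fold change was -2.60. CCNA2, which encodes cyclin A2, fell the most (-3.46), and MKI67 (-3.06) and TOP2A (-2.79) fell as well, while MCM6 had -0.36 and was not called. The summed level of the markers was 932 to 1086 CPM in the NC libraries and 193 to 211 CPM in si-EIF5A2. By fitted log2 fold change, PLK1 and TPX2 fell by more than the median of these markers and the other 8 genes by less. The 95% confidence intervals of NEK2 (-2.76 to -1.99) and PLK4 (-2.68 to -1.95) included that median. Whether the falls of the 10 genes differ from what the share of dividing cells would give was not tested.

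Across 7 lists of related genes, 107 of 110 genes were tested, of which 44 (41.1%) were called lower and 3 (2.80%) higher, with a median log2 fold change of -0.44. The closest to Aurora A were its partners and spindle pole proteins (median -0.82). Among these 17 genes, 10 (58.8%) were called lower, against 13.6% of all genes, and 0 higher, against 11.1%. KIF11, the kinesin that separates spindle poles, fell from 36.2 ± 2.35 to 4.74 ± 0.358 CPM (SD, n = 3), a log2 fold change of -2.93. The spindle pole protein ASPM (-2.88) and the augmin subunit HAUS8 (-2.45) also fell. HAUS1, HAUS5 and HAUS6 of the same complex were called lower, whereas HAUS2, HAUS3, HAUS4 and HAUS7 were not called, with values of 0.18, -0.15, -0.56 and 0.03. HAUS4 missed the call only through the fold limit (adjusted p = 0.00471, edgeR's quasi-likelihood test).

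Of 13 other members of the kinase families tested, 4 (30.8%) were called lower, against 13.6% of all genes, and 1 (7.69%) higher, against 11.1%, with a median log2 fold change of 0.13. The summed level of the 15 listed genes was 864 to 925 CPM in the NC libraries and 538 to 563 CPM in the si-EIF5A2 libraries. Much of this sum was PLK2 (means of 449 and 228 CPM) and NEK6 (173 and 60.5 CPM). Ranges lay wholly lower in si-EIF5A2 for 4 of the 13 genes and wholly higher for 6, against 4296 and 4000 of all 16208 genes. AURKB, the Aurora kinase of the chromosomal passenger complex, had 56.2, 44.5 and 41.5 CPM in the NC libraries and 4.46, 4.79 and 4.52 CPM in si-EIF5A2. Its fall was close to that of PLK1, with 95% confidence intervals that overlapped (log2 fold change -3.37, SE 0.14, adjusted p = 5.2e-06, edgeR's quasi-likelihood test). PLK2, a stress-responsive Polo kinase, fell less, from 415, 448 and 485 CPM to 244, 218 and 223 CPM (-0.98, SE 0.084, adjusted p = 8.7e-05). PLK3 had 62.9, 54.1 and 53.2 CPM in the NC libraries and 69.0, 69.4 and 75.3 CPM in si-EIF5A2, a log2 fold change of 0.33 (adjusted p = 0.0261) that did not reach the fold limit. PLK5 had 0 counts in every library and AURKC had too few to be tested. Among the NEK kinases NEK6 (-1.51) and NEK4 (-1.18) fell. NEK3 (0.43), NEK7 (0.51), NEK9 (0.17) and NEK11 (0.50) were higher in every si-EIF5A2 library but were not called. NEK10 had a mean of 0.820 CPM in the NC libraries and 1.89 CPM in si-EIF5A2 (log2 fold change 1.205, adjusted p = 0.0165), a call lost on leaving out NC replicate 1 (adjusted p = 0.0516), NC replicate 2 (0.0600) or si-EIF5A2 replicate 1 (0.0653).

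Of 26 further genes of centriole assembly, 13 (50%) were called lower, against 13.6% of all genes, and 0 higher, against 11.1% (median -0.54). The centriole protein POC1A had 37.4, 35.6 and 35.2 CPM in the NC libraries and 4.67, 5.10 and 4.38 CPM in si-EIF5A2, a log2 fold change of -2.93. WDR62, a spindle pole and centriole scaffold, changed by -2.82, and CCP110, which caps the growing centriole, by -2.21. CENPJ, which sets centriole length, changed by -1.28 and CEP97, the partner of CCP110, by -1.49. The centrins CETN2 (0.01) and CETN3 (-0.06) were not called. Of 6 tested genes of the centrosome linker, on which NEK2 acts, CEP68 (-0.96) and CEP250 (-0.73) were called lower. This was 33.3% of the 6, against 13.6% of all genes, and 0 were called higher, against 11.1%. Of 19 genes of the pericentriolar material and the gamma-tubulin ring, 6 (31.6%) were called lower and 1 (5.26%) higher (median -0.34). Over all genes these shares were 13.6% and 11.1%. TUBG2 changed by -1.24, ODF2 by -1.06 and TUBGCP6 by -0.95, while CEP131 rose by 0.64. The CEP131 call was lost on leaving out NC replicate 2 (0.62), NC replicate 3 (0.53) or si-EIF5A2 replicate 2 (0.52).

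Genes of protein degradation and its control were split. Of 12, 5 (41.7%) were called lower, against 13.6% of all genes, and 1 (8.33%) higher, against 11.1% (median -0.26). CDC20, the mitotic activator of the anaphase-promoting complex, had 364, 351 and 350 CPM in the NC libraries and 21.6, 34.2 and 29.1 CPM in si-EIF5A2 (log2 fold change -3.65, SE 0.17, adjusted p = 9.1e-06, edgeR's quasi-likelihood test). UBE2C, its ubiquitin-conjugating enzyme, changed by -2.89 and CCNF, an F-box protein of the late cycle, by -2.64. BTRC, the F-box protein that targets PLK4 and BORA, changed by -1.61, and its paralog FBXW11 had 0.43 and did not reach the fold limit. FBXW7, an F-box protein with Aurora A among its substrates, rose from 10.2 ± 1.76 to 18.9 ± 1.18 CPM (SD, n = 3), a log2 fold change of 0.88 (adjusted p = 0.00228).

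Of 14 genes for transcription in G2 and M, 4 (28.6%) were called lower, against 13.6% of all genes, and 0 higher, against 11.1% (median -0.43). MYBL2, the B-MYB factor that works with the MuvB complex, fell from 76.3 ± 1.99 to 13.1 ± 1.39 CPM (SD, n = 3), a log2 fold change of -2.54. FOXM1, a forkhead factor of the late cycle, fell by 2.26 on the log2 scale and the MuvB subunit LIN9 by 1.38. The CCAAT-binding subunits NFYA (0.15), NFYB (-0.25) and NFYC (-0.58) were not called. NFYC missed the call only through the fold limit (adjusted p = 0.00502, edgeR's quasi-likelihood test).

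**Figure D4:**
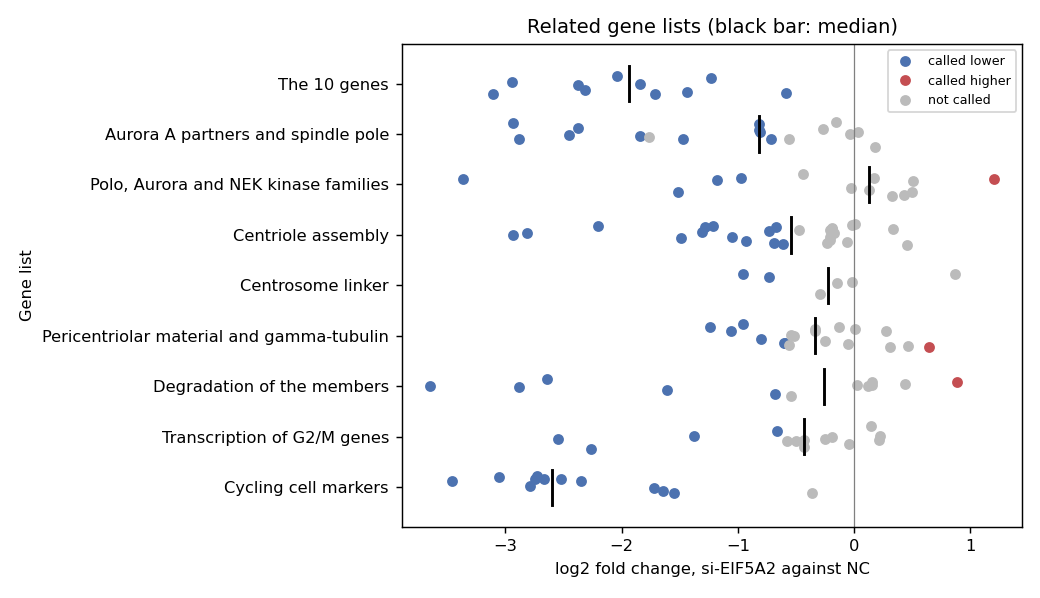
Log2 fold change (si-EIF5A2 against NC) of each tested gene, 1 point per gene, in the 10 genes and 8 lists, with blue for called lower, red for called higher, grey for not called and a black bar at each median. The 10 genes (median -1.94) and the cycling cell markers (-2.60) lie mostly or wholly below the fold limit, while the kinase families are split around a median of 0.13.

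The genes whose log2 CPM followed PLK1 most closely over the 6 libraries were ZNF768, PI4K2A, ZDHHC3, CLK3 and XRCC3 (Pearson's r of 0.9998 for ZNF768 and 0.9996 for XRCC3), and those that followed PLK4 were LMNB1, IARS1, ODF2, SEPHS1 and DTL (r of 0.9991 for LMNB1 and 0.9989 for DTL). These values describe 6 libraries in 2 groups, which share the contrast and the depth, and r does not measure the size of a change: ZNF768 changed by -0.58 where PLK1 changed by -3.10. ODF2, an appendage protein of the centriole, stands both in this group and in the list of the pericentriolar material.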

How the data were processed

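RNA of SKOV3 cells was measured in 3 NC and 3 si-EIF5A2 libraries, grouped by their labels. The authors ran StringTie and ballgown, and the table they deposited holds estimated counts for each gene as whole numbers, without normalization and with a column per replicate. The aligner, genome build and strand setting are not given in the sources used here for human reads; the submitters' processing notes name Bowtie 0.12.2 and mouse builds, which cannot apply to human identifiers. All 6 columns were matched to libraries by name, with 0 left over. A test for counts was planned; since the estimated counts were whole numbers, no rounding was needed.

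Of 58825 identifiers, 58552 were in GENCODE release 29 and 16208 passed filterByExpr. edgeR 4.0.16 (R 4.3.3; TMM, robust quasi-likelihood fit, condition as the only term, Benjamini-Hochberg adjustment over all genes tested) gave fold changes, and SE is the log2 fold change over the root of the F statistic. CPM uses TMM-scaled library sizes, and log2 ratios a prior count of 2. A count of 0 allows up to 3 fragments (0.155 to 0.239 CPM, counting error only). Genes named beyond the 10 were EIF5A2, PLK2, PLK3, PLK5, AURKB, AURKC, up to 3 largest falls and 2 largest rises called per list, and the 5 genes most like PLK1 and PLK4 with a mean of at least 10 CPM; any other gene was picked with its values in view. The genes and lists were chosen with earlier results of these data known.

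Alternatives were DESeq2 1.42.0, RLE, upper-quartile or no scaling factors, other filters and thresholds, a replicate block, summed symbols, counts divided by the step, thinning, and leaving out each library. The edgeR fit and its calls were tested on simulated counts, and the other steps were not.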

Additional observations from a re-analysis of the deposited data

How the results depend on the processing

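Over 18 alternatives 8 to 10 of the 10 genes were called lower and 0 higher, and 0 results reversed direction. PLK1, PLK4, AURKA, NEK2, TPX2, BORA, STIL and SASS6 were called lower under all 18 at the threshold each used. CEP192 lost its call through the fold limit with RLE (-0.58), library size only (-0.58), thinning (-0.58), a fold limit of 2, and without NC replicate 2 or si-EIF5A2 replicate 2, and CEP152 without each of 4 libraries. Leaving out 1 library gave 8 to 10 of the 10 genes, 3638 to 3907 genes in all, 42 to 45 related genes called lower and 1 to 3 called higher (1 without NC replicate 2). With an unadjusted p under 0.05 and a fold over 2, 2370 genes were called, with 26 related genes lower and 1 higher, and with no fold limit 8 related genes were called higher; both follow from the limits themselves. The log2 fold change of EIF5A2 stayed between -3.10 and -2.82.

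Same-numbered libraries showed no shared deviation (correlations -0.0244, 0.00522 and -0.00269). The labels do not say whether same-numbered libraries were prepared together, and correlations from 3 libraries per group cannot decide it. The main fit did not pair them. With the replicate number as a block, 3731 genes were called, the 10 genes were called lower and none higher, and 44 related genes were called lower and 3 higher. Depth limits CEP152, with 11 fragments in its shallowest library, the most.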

Other observations

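Among the related genes, 2 that were not called had an NC library far from the others. TACC1, which encodes a centrosomal coiled-coil protein, had 50.6, 12.7 and 13.3 CPM in the NC libraries and 12.7, 5.77 and 4.09 CPM in si-EIF5A2. HAUS2, an augmin subunit, had 3.52, 4.67 and 17.1 CPM in the NC libraries and 8.80, 9.89 and 9.88 CPM in si-EIF5A2. They were chosen after their values were seen.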
